A study of Homo sapiens with 8 samples.

Results

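The loci of 10 genes of the Notch and Hedgehog pathways were examined in maps of dimethylated lysine 4 of histone H3 (H3K4me2) from RD cells, an established human rhabdomyosarcoma line. The members are the peaks that overlap the hg19 intervals of NOTCH1, NOTCH2, NOTCH3, JAG1, HES1, HEY1, GLI1, GLI2, PTCH1 and SMO, each widened by 10 kb on both sides. The choice of genes used no measured value, but it was made with earlier results of these data known. In all, 197 of the 280986 peaks in 6 deposited lists overlapped these 10 loci. Merged over the 4 single libraries, the peaks made 37 of 58952 regions.

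The cells had received either siLSD1, a short RNA that silences the LSD1 gene (an siRNA), or a control siRNA (siCtrl), and both groups shared the line, the transfection reagent, a medium change after 8 hours and harvest after 96 hours. Chromatin immunoprecipitation and sequencing (ChIP-seq) was done on 2 replicates of each siRNA, which the submitters call biological. Each of these 4 libraries has a peak list, and each siRNA has 1 further list made by the authors from the pooled replicates. LSD1 is the demethylase that takes methyl groups off mono- and dimethylated H3 lysine 4. A single siRNA construct was used against it, the line stands for 1 tumour, and neither the knockdown nor any transcript was measured in these lists, so the identity of the cells was not checked against markers. The lists give no read depth, and from 33878 to 50587 peaks were called per library, covering 70.1 and 94.1 Mb after siCtrl and 96.9 and 104 Mb after siLSD1. Differences in depth or in the yield of the precipitation cannot be told apart from differences in the mark.

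In Notch signalling, a ligand on one cell, such as JAG1, binds a NOTCH receptor on its neighbour, and the receptor is cut so that its intracellular part enters the nucleus and joins the DNA-binding protein RBPJ. HES1 and HEY1 are classical targets of that complex and code for basic helix-loop-helix repressors. In Hedgehog signalling, the receptor PTCH1 holds SMO inactive until a ligand binds, after which SMO passes the signal to the zinc finger factors GLI2 and GLI1. PTCH1 and GLI1 are themselves targets of the pathway. Both pathways act in the development of skeletal muscle and have been studied in rhabdomyosarcoma. H3K4me2 lies over active promoters, where it flanks the start, and over enhancers.

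The 5' ends of 9 of the 10 intervals were marked in every library, and that of GLI2 in none. A region counted as lying at a 5' end when it reached within 1 kb of the start of the interval, whose ends are given to the nearest kb. For GLI2 the interval of 197 kb is shorter than the RefSeq gene model of 256.8 kb, so its 5' end may not be the gene's start. A region 68.0 to 49.6 kb before the GLI2 interval was marked in all 6 lists, so an unmarked GLI2 promoter cannot be read from this. The 9 marked 5' regions were 3738 to 16659 bp wide, with a median of 6255 bp. All 23 member regions called in the 4 libraries had a median width of 5330 bp, beside 2789 bp for the 26653 such regions of the whole genome. Of the 23, 9 lay at a 5' end, and the regions of the genome were not limited to gene starts. Neither the widths nor the scores below were set beside other gene starts, so they cannot be read as particular to these loci. The score, which the authors' peak caller gives to each peak, placed the strongest peak of each 5' region between the 83.4th and 99.5th percentile of its list in siCtrl replicate 1. The same range was 66.0 to 99.7 in siCtrl replicate 2, 93.1 to 99.03 in siLSD1 replicate 1 and 86.2 to 99.2 in siLSD1 replicate 2. Between the groups, 8 of the 9 regions overlapped in breadth, and the region of NOTCH1 was narrower in both siLSD1 libraries. Of the 26653 regions of the genome called in the 4 libraries, 9.62% were narrower and 30.3% broader in both siLSD1 libraries.

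**Figure D1:**
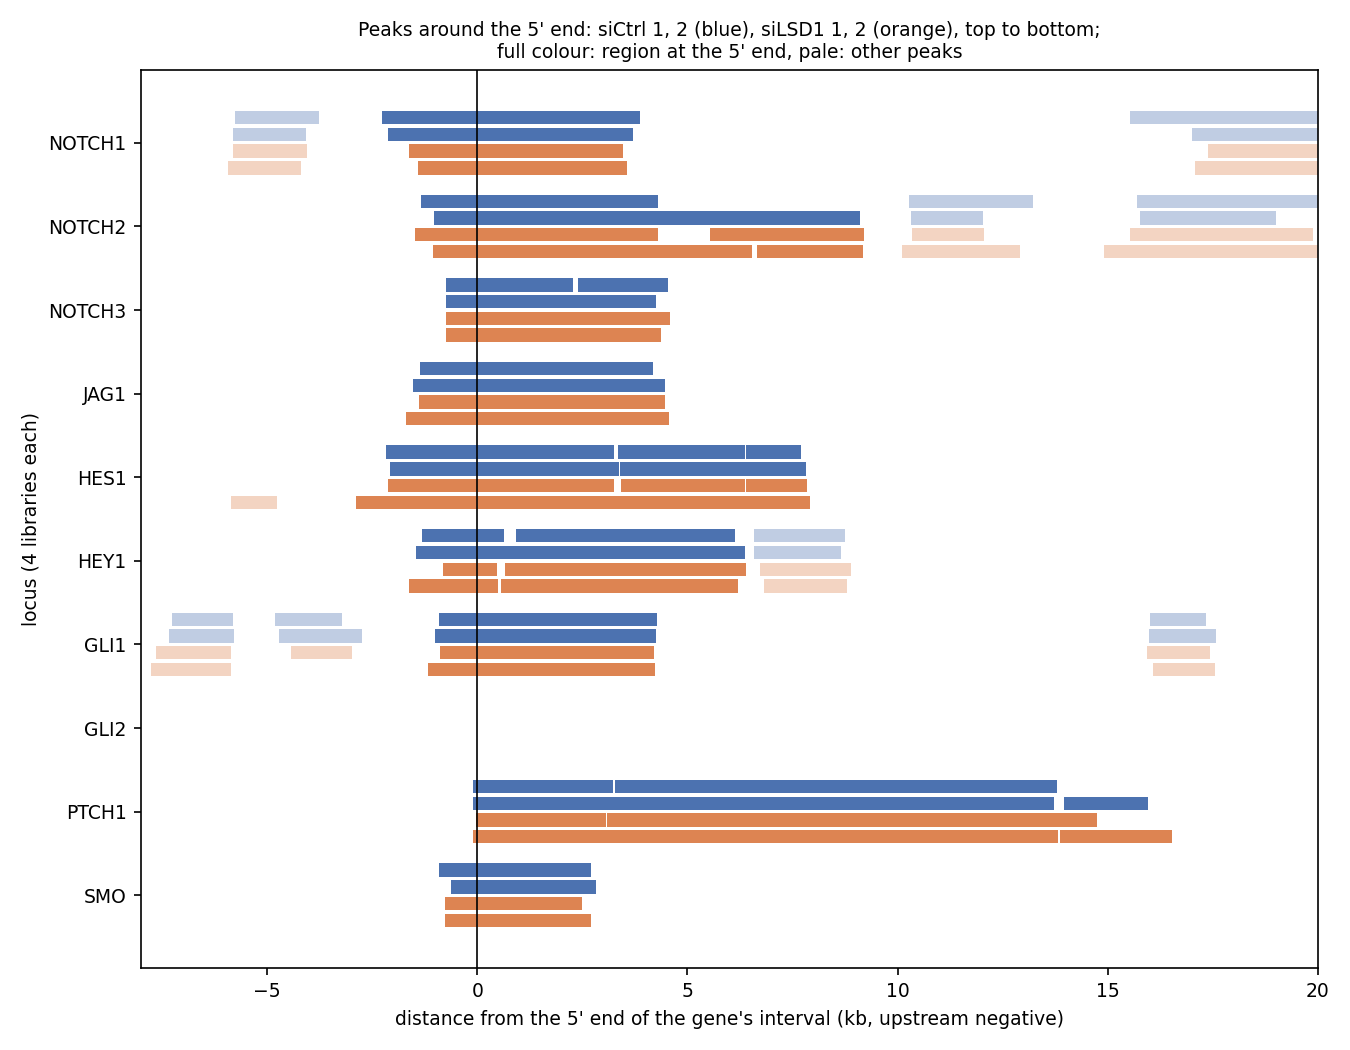
Peaks of the 4 libraries around the 5' end of each locus. The horizontal axis is the distance from the 5' end in the direction of the gene (kb, upstream negative), each bar is a peak, blue is siCtrl and orange is siLSD1, with replicate 1 above replicate 2. Full colour marks the region at the 5' end and pale colour other peaks, cut at the edges of the plot. The bars of NOTCH1 are shorter at both ends in the siLSD1 libraries, PTCH1 is marked far into the gene, and GLI2 has no bar.

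Promoter sequences are shown for 3 of the marked 5' ends. HES1 is the Notch target, NOTCH1 is the 5' end with the difference in breadth, and PTCH1 is the Hedgehog target with the widest region. Each line gives the 250 bases before the gene's start on its own strand, from RefSeq (GRCh38.p14). Capitals mark matches to the RBPJ core, the HES and HEY box and the N box in HES1, and in NOTCH1 and PTCH1 they mark CpG dinucleotides, the usual sites of DNA methylation.
HES1: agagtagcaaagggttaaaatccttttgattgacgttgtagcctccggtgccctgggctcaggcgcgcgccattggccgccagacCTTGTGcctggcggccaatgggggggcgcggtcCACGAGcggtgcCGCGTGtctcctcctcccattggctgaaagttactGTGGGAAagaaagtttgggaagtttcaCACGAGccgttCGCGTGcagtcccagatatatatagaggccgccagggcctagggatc
NOTCH1: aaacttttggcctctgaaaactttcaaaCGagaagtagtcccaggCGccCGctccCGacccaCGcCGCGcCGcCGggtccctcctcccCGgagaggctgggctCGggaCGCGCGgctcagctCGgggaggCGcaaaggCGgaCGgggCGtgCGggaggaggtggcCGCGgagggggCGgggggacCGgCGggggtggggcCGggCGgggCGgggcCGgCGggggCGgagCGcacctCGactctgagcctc
PTCH1: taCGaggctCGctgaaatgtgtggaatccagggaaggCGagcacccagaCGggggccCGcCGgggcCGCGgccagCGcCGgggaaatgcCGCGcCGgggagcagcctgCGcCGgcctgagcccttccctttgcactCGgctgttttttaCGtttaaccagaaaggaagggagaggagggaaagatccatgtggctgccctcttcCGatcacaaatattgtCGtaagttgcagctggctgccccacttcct

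RefSeq promoters were at hand for 8 of the 10 genes, namely all but HEY1 and GLI1. Windows from 250 bases before to 50 after the start were searched on both strands. The RBPJ core GTGGGAA was in the HES1 window, with its first base at position -85 from the start, and in none of the other 7. Over all 35116 promoters, 6.25% held it. The HES and HEY box CACGCG was in the windows of HES1 and JAG1, and 11.4% of all promoters held it. HES1 also carried the N box CACNAG, which was in 5 of the 8 windows and in 38.0% of all promoters. The E-box CACGTG, the GLI site GACCACCCA and its core CCACCCA, which lies within the longer site, were in none of the 8 windows, against 7.26%, 0.236% and 9.19% of all promoters. These matches describe letters in the window and say nothing of binding. Base composition set GLI2 apart, with 46.3% G and C and 7 CpG in the window. The other 7 ranged from 59.0% in HES1 to 78.3% in NOTCH3, and the median promoter had 58.7%. The start in that table belongs to the longer GLI2 model, and its place relative to the peaks was not determined.

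Sequence under peaks was then summed in each widened locus, with peaks clipped at its ends, to ask whether the pathways' genes carried more of the mark after siLSD1. At NOTCH2 both siLSD1 libraries had more under peaks than either siCtrl library, and at NOTCH1 both had less. The groups overlapped in the other 8 loci. For scale, 38.2% of the 16718 windows of 100 kb with peaks in at least 2 libraries had more in both siLSD1 libraries, and 5.11% had less. Of the 10 loci 1 was higher and 1 lower, and the loci differ in length from those windows. The tally moved with the scale. With the same number of peaks from each list, 3 loci were higher (NOTCH2, PTCH1 and SMO) and 1 was lower (NOTCH1). As a share of each list's covered length, which was larger in both siLSD1 lists, 1 was higher (NOTCH2) and 7 were lower (NOTCH1, NOTCH3, JAG1, HEY1, GLI1, PTCH1 and SMO). The share of all windows was computed for kb only. On the other scales the tallies have no genome value beside them and cannot be read as particular to these loci. An exact two-sided permutation test of 2 libraries against 2 cannot give a p below 0.33, which NOTCH1 and NOTCH2 reached, and the Benjamini-Hochberg adjusted p over the 10 loci was 0.741 for both. The p-values measure the spread between these libraries only.

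**Figure D2:**
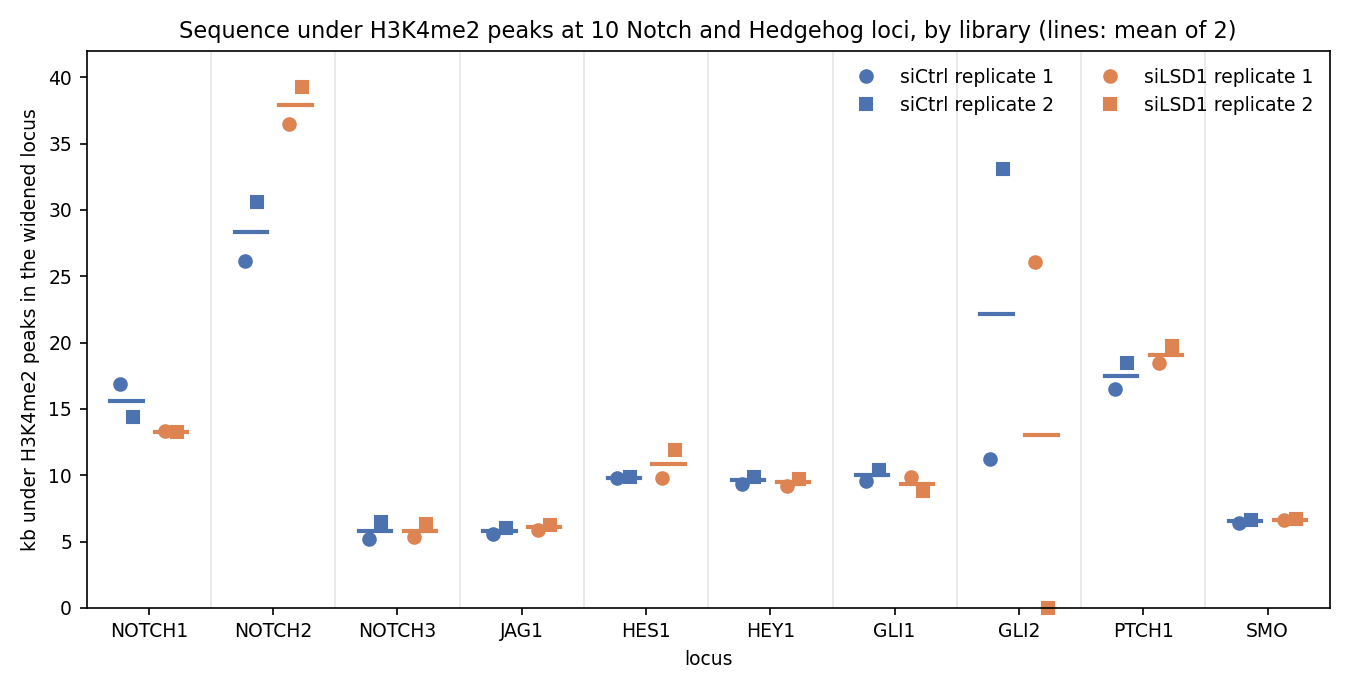
Sequence under H3K4me2 peaks (kb, vertical axis) in each of the 10 widened loci. Each point is a library (circle, replicate 1; square, replicate 2; blue, siCtrl; orange, siLSD1), and each line is the mean of 2. The groups are apart at NOTCH1 and NOTCH2, and at GLI2 the 4 libraries run from 0 to 33.1 kb.

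Summed over all 10 loci, the libraries held 116.6 and 145.8 kb after siCtrl and 141.0 and 121.9 kb after siLSD1. The means of the siRNA groups were 131.2 ± 20.7 and 131.4 ± 13.5 kb (SD, n = 2 each), so the groups did not differ beyond their spread (exact two-sided permutation p = 1). The GLI2 locus alone made up much of this spread. Without it, the other 9 loci held 105.3 and 112.7 kb after siCtrl and 114.9 and 121.9 kb after siLSD1. That is a mean of 109.0 ± 5.23 kb and of 118.4 ± 4.91 kb (SD, n = 2 each), with an exact permutation p of 0.33, and a ratio of 1.09 beside 1.23 for the covered length of the whole lists. As a share of each list's covered length the 9 loci went the other way. They took up 0.150% and 0.120% after siCtrl and 0.119% and 0.117% after siLSD1. The difference at NOTCH2 alone, 9.53 kb, was about the size of that of the 9 loci, 9.40 kb. The 7 loci other than GLI2, NOTCH1 and NOTCH2 held 62.3 and 67.8 kb after siCtrl and 65.1 and 69.4 kb after siLSD1, values that overlap.

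Among single regions, no member was gained, which would need a peak in both siLSD1 libraries and in neither siCtrl library. In the genome 6.97% of regions were gained. Of the 37 member regions, 2 (5.41%) were lost, with peaks in both siCtrl libraries only, beside 1.04% of all regions. One lay in NOTCH2 and the other in GLI2. Of the 23 member regions common to the 4 libraries, 3 were broader in both siLSD1 libraries, against 30.3% in the genome, and 3 were narrower, against 9.62%. The median difference in breadth was 0.032 kb in these members and 0.126 kb over all common regions. In limma, fitted to the kb under peaks of 44464 regions with a peak in at least 2 libraries, 0 of the 34 member regions tested passed an adjusted p of 0.05, as did 0% of all regions. The smallest adjusted p of a member was 0.155. At an unadjusted limma p under 0.05 there were 5 member regions, 1 higher and 4 lower after siLSD1, and 15.6% of all regions had such a p. Of the 44464 regions, 5948 with such a p were higher and 997 lower.

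Of the receptors, NOTCH1 was the locus that lay lower. On chromosome 9 from 139388000 to 139441000, it held 16.8 and 14.4 kb under peaks in siCtrl replicates 1 and 2, and 13.4 and 13.2 kb in siLSD1 replicates 1 and 2. The siCtrl mean was 15.6 ± 1.74 kb and the siLSD1 mean 13.3 ± 0.0940 kb (SD, n = 2 each), a difference of -2.33 kb. Both siLSD1 values lay below both siCtrl values. Taking the same number of peaks per list removed no peak of this locus and left these values unchanged, so it adds no support. The 4 regions of the locus were called in every library and in both pooled lists, so the difference is one of width.

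The NOTCH1 region at the 5' end, chr9:139437118-139443277, spanned the start of the interval. Its peaks measured 6.16 and 5.84 kb after siCtrl and 5.10 and 4.98 kb after siLSD1. Both edges lay closer to the start in the siLSD1 libraries. The upstream edge was at -2.28 and -2.13 kb from the 5' end after siCtrl and at -1.63 and -1.41 kb after siLSD1. The downstream edge was at 3.88 and 3.71 kb after siCtrl and at 3.47 and 3.57 kb after siLSD1. The difference in breadth was -0.957 ± 0.259 kb (SE), with a limma p of 0.0267 and an adjusted p of 0.213. The pooled lists had peaks of 6.34 kb after siCtrl and 5.41 kb after siLSD1 there.

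A second NOTCH1 region lay inside the gene, 15.5 to 21.8 kb from the 5' end, at chr9:139419171-139425463. It was the broadest of the locus in siCtrl replicate 1, with 6.29 kb, and it measured 4.74 kb in siCtrl replicate 2 and 4.24 and 4.35 kb in the siLSD1 libraries. Most of that difference came from siCtrl replicate 1, and the adjusted limma p was 0.550. The 5' flanking region, chr9:139444775-139446927, was 1.99 and 1.74 kb wide after siCtrl and 1.75 and 1.73 kb after siLSD1, which overlap. The same was true of the region beyond the 3' end, on the side of SEC16A, with 4.79 and 4.15 kb against 4.70 and 4.80 kb.

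NOTCH2, a receptor closely related to NOTCH1, was the locus with more under peaks. On chromosome 1 from 120454000 to 120613000, the libraries held 26.1 and 30.6 kb after siCtrl and 36.5 and 39.3 kb after siLSD1. The means were 28.3 ± 3.14 kb and 37.9 ± 1.95 kb (SD, n = 2 each), a ratio of 1.34. With the same number of peaks from each list the values were 26.1 and 27.9 kb against 30.5 and 37.2 kb. As a share of covered length the groups almost met, with 0.0372% and 0.0325% after siCtrl and 0.0377% and 0.0376% after siLSD1. The first exons of NOTCH2 have near-identical copies in the NOTCH2NL genes on the other arm of the chromosome, and the sources used here do not say how reads that align to several places were treated, so the values at the 5' part of the locus are uncertain.

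The NOTCH2 locus held 10 regions, all within the gene or over its start. At the 5' end, chr1:120603804-120614494 had 5.63 and 10.1 kb under peaks after siCtrl and 9.45 and 10.1 kb after siLSD1. Only siCtrl replicate 1 was low there. Next to it, between 10.1 and 29.3 kb into the gene, 3 regions were called in the 4 libraries, and their breadth overlapped between the groups. Farther in lay 3 regions, at chr1:120529272-120531644, chr1:120534212-120539837 and chr1:120578250-120580618, that were called in every library but that one. In the genome, 20.2% of the regions that the other 3 libraries had were missing from siCtrl replicate 1, whose list was the shortest. At all 3 regions both siLSD1 libraries also exceeded siCtrl replicate 2, and without siCtrl replicate 1 the NOTCH2 locus still differed by 7.31 kb.

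The second of the 3 measured 3.63 kb in siCtrl replicate 2 and 4.01 and 5.61 kb after siLSD1. The third measured 1.71 kb in siCtrl replicate 2 and 2.11 and 2.28 kb after siLSD1. The first, 81.4 to 83.7 kb into the gene, measured 0 and 0.947 kb after siCtrl and 2.31 and 2.01 kb after siLSD1. The difference of 1.69 ± 0.419 kb (SE) had a limma p of 0.0222 and an adjusted p of 0.193, and its peak scores lay between 51.7 and 109.6, where the lowest score in the lists is 50. The common region broader in both siLSD1 libraries lay at chr1:120554320-120560474. It was 4.42 and 3.92 kb wide after siCtrl and 6.16 and 4.82 kb after siLSD1, with an adjusted limma p of 0.480. In the opposite direction, chr1:120507490-120508961, 104.0 to 105.5 kb into the gene, had peaks of 1.30 and 1.35 kb in the siCtrl libraries and none in the siLSD1 libraries. This lost region had scores of 84.6 and 125.7, a difference of -1.32 ± 0.220 kb (SE) and an adjusted limma p of 0.155. It was also called in the pooled siCtrl list and not in the pooled siLSD1 list.

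The pooled lists differed most at NOTCH2. There the authors' pooled siCtrl list had 8 peaks over 35.4 kb and the pooled siLSD1 list 9 peaks over 60.2 kb. Over the 10 loci, 5 of 32 pooled siLSD1 peaks overlapped no pooled siCtrl peak, while 27% of all pooled siLSD1 peaks did so. In the other direction it was 2 of 28, against 8.86%. Both of the latter and 3 of the former were in NOTCH2, with scores of 63.0 to 236.5. The highest of them, chr1:120591629-120599149 in the pooled siLSD1 list, lay over a region with a peak in each of the 4 library lists, including both siCtrl lists. The remaining pair lay near HES1 and GLI1, at chr3:193847147-193848266 with a score of 68.3 and at chr12:57872813-57873870 with a score of 60.6.

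**Figure D3:**
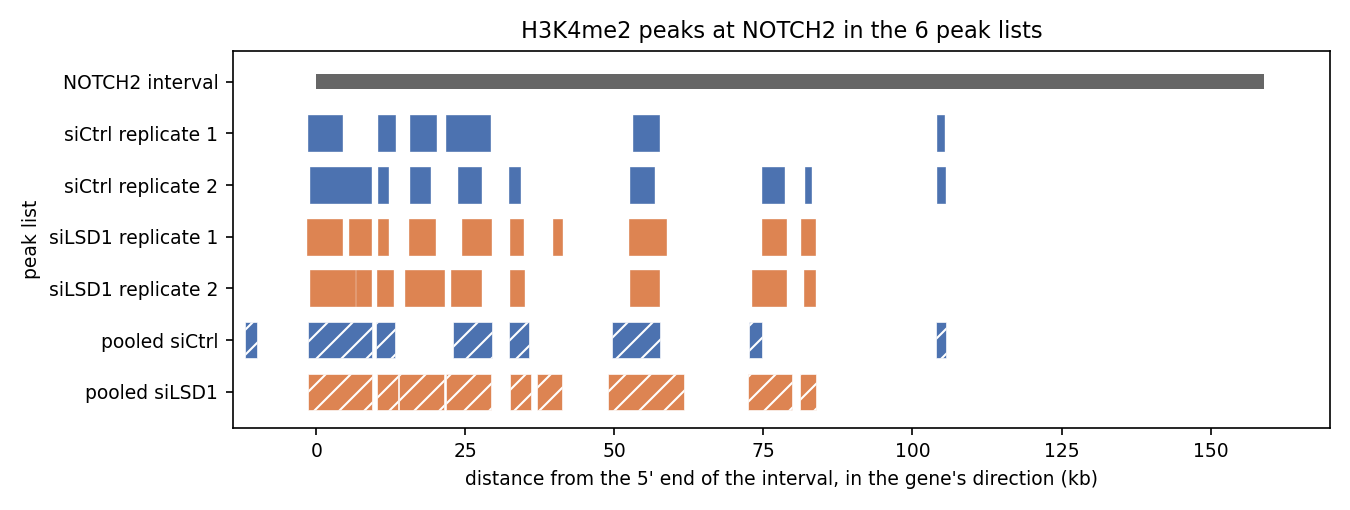
H3K4me2 peaks at NOTCH2 in the 4 library lists and the 2 pooled lists (hatched), drawn against the distance from the 5' end in the direction of the gene (kb). The grey bar is the interval, blue is siCtrl and orange siLSD1. Inside the gene, siCtrl replicate 1 lacks 3 regions that the other libraries share, and the peak ending at 105.5 kb is in the siCtrl lists only.

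NOTCH3, the third receptor, was marked narrowly. On chromosome 19 from 15270000 to 15312000 the libraries held 5.16 and 6.50 kb after siCtrl and 5.32 and 6.33 kb after siLSD1. In both replicates 1 all of it, and in both replicates 2 most of it, was the region at the 5' end, chr19:15307424-15312753, with 5.161 and 4.999 kb after siCtrl and 5.32 and 5.12 kb after siLSD1. A second region inside the gene, chr19:15287800-15289316, had a peak in both replicates 2 and in neither replicate 1, with scores of 58.2 and 62.5. Both pooled lists had a peak there. In the library lists its presence went with the replicate number, at scores near the lowest of 50.

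The ligand gene JAG1 had 1 region, over its 5' end at chr20:10650435-10656689. Its width was 5.55 and 5.99 kb after siCtrl and 5.86 and 6.26 kb after siLSD1, and the groups overlapped. No other peak was called within the widened 57.0 kb of the locus in any of the 6 lists.

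The target genes HES1 and HEY1 were marked over nearly their whole length and beyond it in every library. HES1, on chromosome 3 from 193853000 to 193857000, lay within chr3:193850117-193860908, a region from -2.88 to 7.91 kb relative to the 5' end. Its kb under peaks were 9.75 and 9.87 after siCtrl and 9.78 and 10.8 after siLSD1. The libraries differed in how the caller cut this stretch, with 3 and 2 peaks after siCtrl and 3 and 1 after siLSD1. Its strongest peak was at percentile 95.5, 99.7, 98.4 and 97.1 of the 4 lists in that order. A small peak upstream, with a score of 53.5, was in siLSD1 replicate 2 only.

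HEY1, on chromosome 8 from 80676000 to 80681000, had 9.33 and 9.90 kb under peaks after siCtrl and 9.22 and 9.74 kb after siLSD1. Each siLSD1 library lay between or below the siCtrl values, by less than the replicates differed. Of its 2 regions, the one over the gene, chr8:80674613-80682633, measured 7.17 and 7.83 kb after siCtrl and 7.03 and 7.77 kb after siLSD1. In the lists of siCtrl replicate 1 and of both siLSD1 libraries it was divided into 2 peaks within 1 kb of the 5' end, and in siCtrl replicate 2 it was 1 peak.

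In the Hedgehog pathway, the receptor gene PTCH1 had the widest 5' region of the 10 loci. The region chr9:98263457-98280115 ran from -0.115 to 16.5 kb relative to the 5' end, and 26 common regions in the genome were at least as wide. It had 13.9 and 15.8 kb under peaks after siCtrl and 14.8 and 16.6 kb after siLSD1, in each library as 2 peaks. Replicates 2 were the wider in both groups, and the groups overlapped. Inside the gene, 52.4 to 56.3 kb from the 5' end, chr9:98223726-98227594 measured 2.66 and 2.65 kb after siCtrl and 3.68 and 3.08 kb after siLSD1. Both siLSD1 values were higher, with a difference of 0.727 ± 0.269 kb (SE), a limma p of 0.0650 and an adjusted p of 0.378. For the whole locus, 16.5 and 18.5 kb after siCtrl and 18.5 and 19.7 kb after siLSD1 just overlapped. With the same number of peaks from each list they did not, at 16.5 and 16.5 kb against 18.5 and 19.7 kb. As a share of covered length they separated the other way, at 0.0236% and 0.0196% after siCtrl against 0.0191% and 0.0189% after siLSD1.

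SMO, the membrane protein that PTCH1 restrains, had a compact 5' region at chr7:128827079-128830816. It was 3.63 and 3.45 kb wide after siCtrl and 3.27 and 3.49 kb after siLSD1, the narrowest of the marked 5' ends. No other peak overlapped the gene, and its 3 remaining regions lay beyond its 3' end, on the side of AHCYL2. The largest of those, chr7:128863378-128868639, held 4.87 and 5.09 kb after siCtrl and 3.79 and 4.04 kb after siLSD1. In siLSD1 replicate 1 the caller cut it into 2 peaks. Its difference of -1.07 ± 0.229 kb (SE) had a limma p of 0.0135 and an adjusted p of 0.159. It starts 35.4 kb from the 5' end of SMO, and most of it lies past the end of the widened locus. The SMO total, clipped at that end, was 6.42 and 6.65 kb after siCtrl and 6.60 and 6.69 kb after siLSD1, values that overlap. With the same number of peaks from each list only siCtrl replicate 2 changed, to 5.40 kb, and the groups were then apart. The change was the loss of a peak of 1.25 kb with a score of 66.5.

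GLI1, the factor that is itself a Hedgehog target, had among the highest-scoring 5' ends. Its region chr12:57851819-57857281 was at percentile 99.5 and 99.7 of the siCtrl lists and 99.03 and 99.2 of the siLSD1 lists. The width was nearly the same in the 4 libraries, with 5.19 and 5.27 kb after siCtrl and 5.08 and 5.40 kb after siLSD1. There were 2 regions upstream, on the side of INHBE, and they went in opposite directions. The farther, chr12:57845229-57847215, was 1.47 and 1.55 kb wide after siCtrl and 1.79 and 1.91 kb after siLSD1. The nearer, chr12:57848194-57850249, was 1.595 and 1.98 kb wide after siCtrl and 1.47 kb in siLSD1 replicate 1, and siLSD1 replicate 2 had no peak there. Neither passed the limma test, with adjusted p of 0.458 and 0.597.

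GLI2, the main activator downstream of SMO, was the locus where the lists differed most among themselves. On chromosome 2 from 121554000 to 121751000, 11.3 and 33.1 kb were under peaks in siCtrl replicates 1 and 2, and 26.1 and 0 kb in siLSD1 replicates 1 and 2. The groups overlapped, and the spread between replicates (SD of 15.4 and 18.4 kb, n = 2 each) exceeded the difference of the means, -9.14 kb. Its 6 regions lay inside the gene, from 20.2 to 132.5 kb after the 5' end, and none was called in every library.

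The list of siLSD1 replicate 2 had no peak over 312.4 kb, from 121513901 to 121826298, and the pooled lists were empty over 530.2 kb after siCtrl and 524.4 kb after siLSD1. In that stretch the other lists held peaks of high score. At chr2:121648066-121655388 siCtrl replicate 2 had a peak of 4.79 kb with a score of 3008.13, and siLSD1 replicate 1 one of 7.32 kb with a score of 1457.28. Peaks with a score of at least 1000 that overlapped nothing in the pooled list of their own siRNA were rare, with 6 of 9398 (0.0638%) in siCtrl replicate 2 and 13 of 2524 (0.515%) in siLSD1 replicate 1. The region chr2:121574182-121581185 was called in the other 3 libraries, with 6.36, 5.59 and 6.97 kb, and in neither pooled list. Of the regions called in both siCtrl libraries, 0.16% had no peak in the pooled siCtrl list. Of these 46 regions, 3 were members, 2 in GLI2 and 1 in NOTCH2. For siLSD1 the share was 0.218%, with 0 members. The absence of peaks from a list therefore did not follow the scores in the libraries at GLI2, and why these peaks are not in the lists was not tested.

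The lost region of GLI2, chr2:121622161-121628177, lay in this stretch and is one of the 3 without a peak in the pooled siCtrl list. Its peaks measured 4.90 and 5.93 kb after siCtrl, with scores of 155.8 and 252.2, and were at 0 in both siLSD1 lists. The difference of -5.41 ± 0.417 kb (SE) had the smallest limma p of the 34 member regions, 0.000547, with an adjusted p of 0.155. In siLSD1 replicate 1 the neighbouring regions on both sides had peaks and this one did not. In siLSD1 replicate 2 the whole locus was empty, so only 1 of the 2 libraries shows an absence within a locus that is otherwise marked. After quantile normalization this region passed, at an adjusted limma p of 0.0375. At that setting 1 higher and 4 lower regions passed over all 44464.

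**Figure D4:**
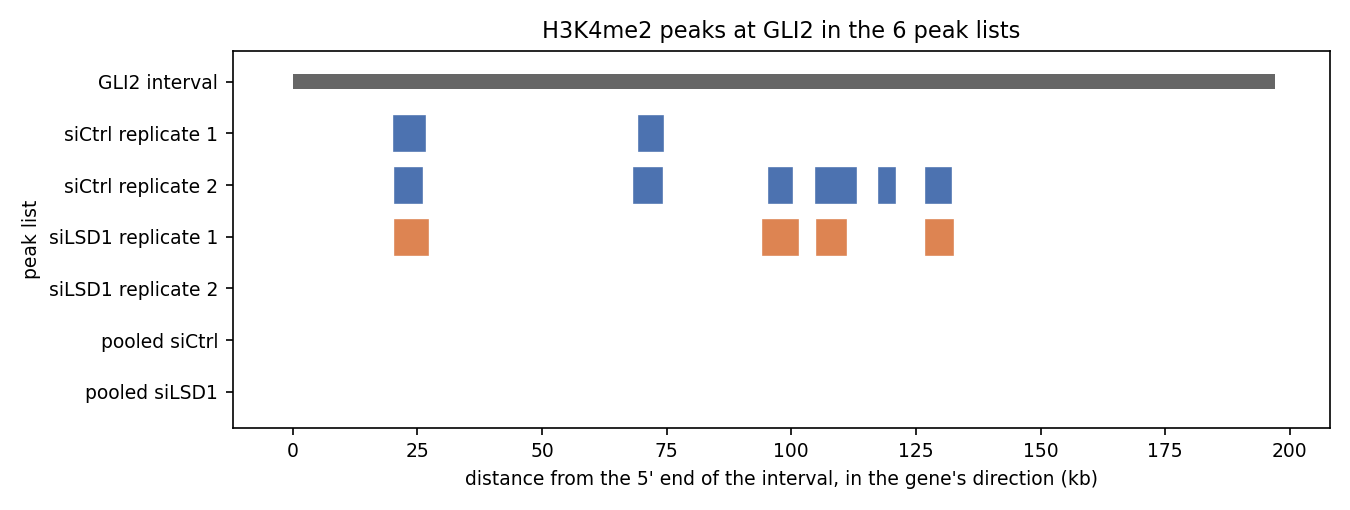
H3K4me2 peaks at GLI2 in the 4 library lists and the 2 pooled lists, drawn against the distance from the 5' end in the direction of the gene (kb). The grey bar is the interval, blue is siCtrl and orange siLSD1. The list of siLSD1 replicate 2 and both pooled lists have no peak, while the other 3 lists have from 2 to 6.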

How the data were processed

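H3K4me2 peaks of 4 ChIP libraries were used, and the 4 input libraries were not analysed here. Per the submitters' processing notes, reads were aligned with Bowtie to hg19. Peak names carry the name of MACS, per the deposited files, and the sources do not name its version, settings or control. A score by the authors comes with every deposited peak. It was used to rank peaks within a list and, at a fixed cutoff of 1000, to pick high-scoring peaks for the check against the pooled lists. That cutoff took unlike shares of the lists, with 9398 of 44831 peaks in siCtrl replicate 2 and 2524 of 50587 in siLSD1 replicate 1. The way replicates were combined is not stated in those sources.

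Intervals, members and lists were chosen with earlier results of these data known. Peaks on chromosomes 1 to 22 and X were used. Coordinates are hg19, counted from 1. Regions are the union of library peaks sharing 1 bp or more. Kilobases under peaks per region were fitted over all regions with limma 3.58.1 (trend and robust options, R 4.3.3) with Benjamini-Hochberg adjustment. Locus totals were compared by exact permutation over the 4 libraries. Strands came from RefSeq (GRCh38.p14), and for GLI1 and HEY1 from general knowledge. The regions named were fixed by rule, as the region at the 5' end, the broadest region, each gained or lost region and the highest-scoring peak of only 1 pooled list in a locus. Others were named after their values were seen, among them the common regions whose groups did not overlap. Other genes of the 2 pathways were not analysed here, since no hg19 annotation was used. Windows of 100 kb, the totals without GLI2 and the comparison of library lists with their pooled list were added after the data were seen. Merging and limma were run on simulated data as a check of the code, and how small a change these libraries could show is not given here. Python 3.11.15 was used.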

Additional observations from a re-analysis of the deposited data

How the results depend on the processing

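The limits are few libraries, unknown depth and calls near the threshold. Fitted with a replicate block, limma called 0 member regions (smallest adjusted p 0.149). Same-numbered libraries deviated together only weakly over regions (correlation 0.198), and with 2 pairs the numbers were not taken as pairs. Quantile normalization gave 1 member call, the lost region of GLI2, and over all 44464 regions 1 higher and 4 lower calls. It moved the median difference over these regions from 0.212 to -0.0913 kb. The other limma settings called 0 member regions. Gained regions numbered 5 with loci widened by 50 kb (of 80 regions) and 0 to 3 when a library was left out (3 without siCtrl replicate 2, 1 without either siLSD1 library). Lost regions numbered 0 in the upper 50% of each list, 4 with 50 kb, 1 without GLI2 and 2 to 4 when a library was left out (3 without siCtrl replicate 1, 4 without siLSD1 replicate 1). Of 41 common regions with 50 kb, 6 were broader and 5 narrower. When a library was left out, where the rule is looser, 7 to 11 were broader and 5 to 9 narrower, of 23 to 26 common regions. Peaks in the pooled siCtrl list only numbered 4 with equal numbers, 1 without widening and 4 with 50 kb, and in the pooled siLSD1 list only 3, 3 and 19. For the gained, lost, broader, narrower and pooled counts, the share over the genome was not computed at these settings. They show how the tallies move and cannot be read as particular to the members.

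The difference of 0.261 kb over the 10 loci was 9.40 kb without GLI2, -0.0294 percentage points as a share of covered length, and from -14.4 to 14.9 kb when a library was left out. Leaving out replicate 1 of siCtrl gave -14.4 kb and replicate 2 gave 14.9 kb, and for siLSD1 these were -9.31 and 9.84 kb. When a library was left out, the NOTCH2 difference stayed above 0 (7.31 to 11.7 kb). That of NOTCH1 stayed below 0 (-3.56 to -1.09 kb). In the upper 50% of each list by score the NOTCH2 difference was 1.84 kb, against 9.53 kb in the main analysis. For NOTCH1 it was -1.33 kb there, against -2.33 kb, but NOTCH1 was at 1.96 kb with 50 kb of widening. The differences of other loci changed sign too. NOTCH3 was at 0.135 kb with equal numbers, 1.20 in the upper 50%, 0.0065 without widening and 1.07 with 50 kb. HES1 was at -0.0185 kb and SMO at -0.153 without widening, SMO at -0.146 with 50 kb. HEY1 was at 0.943 kb in the upper 50%, 0.0105 without widening and 2.98 with 50 kb, and GLI2, at -9.14 kb in the main analysis, at 1.63 in the upper 50%, 1.79 without siCtrl replicate 2 and 3.91 without siLSD1 replicate 2. As a share of covered length JAG1, HES1, PTCH1 and SMO were at -0.00112, -0.00145, -0.00263 and -0.00150 percentage points. Leaving out a library gave ranges of -0.675 to 0.66 kb for NOTCH3, -0.026 to 2.08 for HES1, -0.42 to 0.151 for HEY1, -22.2 to 3.91 for GLI2 and -0.0035 to 0.225 for SMO. The cause was not tested.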

Other observations

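A broad marked region lay upstream of the GLI2 interval, outside the 10 kb that the loci were widened by. It ran from 121486013 to 121504418 on chromosome 2 (hg19), 68.0 to 49.6 kb before the interval, and was chosen after its values were seen. The libraries had 16.3 and 15.8 kb under peaks there after siCtrl and 16.8 and 17.9 kb after siLSD1, and the pooled lists had 18.0 and 19.9 kb. The highest scores were 1321.5, 3100, 1667.26 and 3100 in the 4 libraries. Unlike the interval itself, this stretch was thus marked in all 6 lists. RefSeq (GRCh38.p14) gives GLI2 a length of 256.8 kb, against 197 kb for the interval. If the interval and that model share their 3' end, the start of the longer model lies within this region. The ends were not compared here.

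Windows of 100 kb without a peak in 1 library while the other 3 had peaks numbered 1648 for siCtrl replicate 1 (11% of such windows), 79 for siCtrl replicate 2 (0.589%), 169 for siLSD1 replicate 1 (1.25%) and 132 for siLSD1 replicate 2 (0.98%). These counts ask for no minimum score in the other libraries and may include windows of the GLI2 locus, and stretches as long as the one at GLI2 were not counted.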
